A study of Mus musculus with 18 samples.

Results

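The genes described here are transcription factors of the primitive streak and of the mesoderm that first leaves it: Eomes, Mixl1, Gsc, Lhx1, Evx1, Mesp1, Mesp2, Tbx6 and Msgn1. They were chosen by name, and each was read by 1 probe set, so 9 of 22180 genes with a single symbol were members. Brachyury, the founding T-box gene of the streak, belonged to the same list of 10 names but is not analysed here. The 18 arrays held total RNA of C57BL/6 mouse embryonic stem cells differentiating as embryoid bodies, suspended clumps in which the cells begin to specialise. The drug arm received 0.25 mM thalidomide, a human teratogen that binds the ubiquitin ligase subunit cereblon, for 24, 48 or 72 h, beginning on day 3 after aggregation started. The control arm is described as 0.25% DMSO vehicle in the treatment protocol and as unexposed in the series description, and its source names give the hours as time since embryoid bodies formed. Each of the 6 groups had 3 arrays that the labels call biological replicates. The labels name no clone, passage or separate cultures, so p-values measure the spread between these arrays.

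In the mouse embryo the streak is the site where epiblast cells turn into mesoderm and endoderm. Nodal, Wnt and BMP signals induce it, and its transcription factors are switched on briefly and switched off again as cells move on to heart, blood vessel, somite or gut fates. Eomes, a T-box factor, and Mixl1, a homeobox factor, act early in mesoderm and endoderm formation. Mesp1 marks the first mesoderm that will form heart, whereas Tbx6 and Msgn1 act in presomitic mesoderm, the source of the somites. Some members are also used elsewhere: Eomes in trophoblast, and Gsc and Lhx1 in anterior visceral endoderm.

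Arrays of a group correlated at r = 0.992 to 0.996 across genes. The median array signal ran from 5.367 to 5.462 on the log2 scale, which the normalization between arrays makes nearly alike. These values do not compare RNA quality between groups, and signs of RNA handling that differed between the arms at 24 h and 48 h are given below. A re-analysis tag is present in the titles of 12 arrays, namely the 9 controls and the 3 exposed ones of 24 h. It is missing from the other 6, all exposed, so at 48 h and 72 h the tag and the drug cannot be told apart. Among pluripotency markers, Nanog, a core factor, had a control signal of 9.13 ± 0.21 at 24 h and 4.82 ± 0.33 at 72 h (SD, n = 3). Other pluripotency and epiblast genes had control means at 24 h from 4.92 for Esrrb to 10.74 for Dnmt3b, with the median gene at 5.77. Between these stood Fgf5 at 9.20, Sox2 at 7.92 and Pou5f1 at 6.85. Signals of different probe sets do not rank genes by amount of RNA. The arrays measure whole embryoid bodies, in which fewer cells of a type and less RNA per cell cannot be told apart.

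Promoter sequences of 8 of the 9 members (all but Mixl1) were in the RefSeq promoter table of mouse assembly GRCm38.p6. Members that fall together over time raise the question of shared letters in their promoters, so 3 promoters are shown: those whose upstream stretch held a match to a LEF/TCF or a paired homeodomain site. Each sequence gives 250 bases upstream of the annotated start on the gene's strand, with matches in capitals. In Eomes (chr9:118477939-118478188, plus strand) the capitals mark TAAT followed, 3 bases on, by its reverse complement ATTA, a paired homeodomain site of the kind bound by Mixl1-type factors. In Mesp1 (chr7:79793591-79793840, minus strand) and Msgn1 (chr12:11208949-11209198, minus strand) they mark CTTTGA or its reverse complement, the core read by the LEF/TCF factors of the Wnt pathway.
Eomes: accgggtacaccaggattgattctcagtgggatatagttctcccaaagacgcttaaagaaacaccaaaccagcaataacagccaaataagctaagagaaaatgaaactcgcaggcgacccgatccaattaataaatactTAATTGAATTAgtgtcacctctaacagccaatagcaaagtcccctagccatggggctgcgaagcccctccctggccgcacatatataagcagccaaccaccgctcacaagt
Mesp1: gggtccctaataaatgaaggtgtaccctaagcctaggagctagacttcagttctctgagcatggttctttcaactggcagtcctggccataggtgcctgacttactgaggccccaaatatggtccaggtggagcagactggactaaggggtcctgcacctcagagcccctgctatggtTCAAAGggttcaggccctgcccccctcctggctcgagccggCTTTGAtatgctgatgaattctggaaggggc
Msgn1: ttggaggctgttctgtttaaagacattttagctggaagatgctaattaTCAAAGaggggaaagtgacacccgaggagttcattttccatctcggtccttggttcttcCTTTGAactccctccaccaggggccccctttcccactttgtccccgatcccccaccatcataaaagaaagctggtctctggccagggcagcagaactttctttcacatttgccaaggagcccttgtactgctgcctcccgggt
The LEF/TCF matches began 72 and 31 bases before the start in Mesp1 and 202 and 143 bases before it in Msgn1. At least 1 such match was present in 13.8% of 32851 promoters of the table; the matches in these members are 2 of 8. The homeodomain match in Eomes began 111 bases before the start, and 0.463% of promoters held one. The short T-box core GTGTGA was matched in 1 of the 8, Evx1, against 12.3% of promoters. The full T-box site TCACACCT was in none of the 8 upstream stretches (1.12% of promoters), nor were CAGCTG (13%), CATATG (3.46%), TAATCC (6.25%), the FOXH1 words AATCCACA and AATACACA (1.61%) or the SMAD word GTCTAGAC (0.167%). Both strands were searched, and the short core is part of the full site. When the 50 bases after the start were searched too, a window chosen after the sequences were seen, Mesp1 held 1 full T-box site that began 5 bases after the start, and Mesp2 held 1 FOXH1 word, AATCCACA, that began 24 bases after it.
Mesp1 T-box site: ggcccgctTCACACCTagggctca
In that longer window 1.28% of promoters held the full T-box site and 1.82% a FOXH1 word. These matches describe letters only.

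The first question was how the members moved as control cultures differentiated. All 9 fell between 24 h and 72 h in limma's test (Benjamini-Hochberg adjusted p under 0.05 over all genes), where 14.3% of genes fell and 27.5% changed in either direction. The median log2 change of the members was -1.64, against -0.040 over all genes. Arrays of the 24 h and 72 h groups did not overlap for any of the 9 members, and 23.3% of all genes had such separation with 72 h lower.

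**Figure D1:**
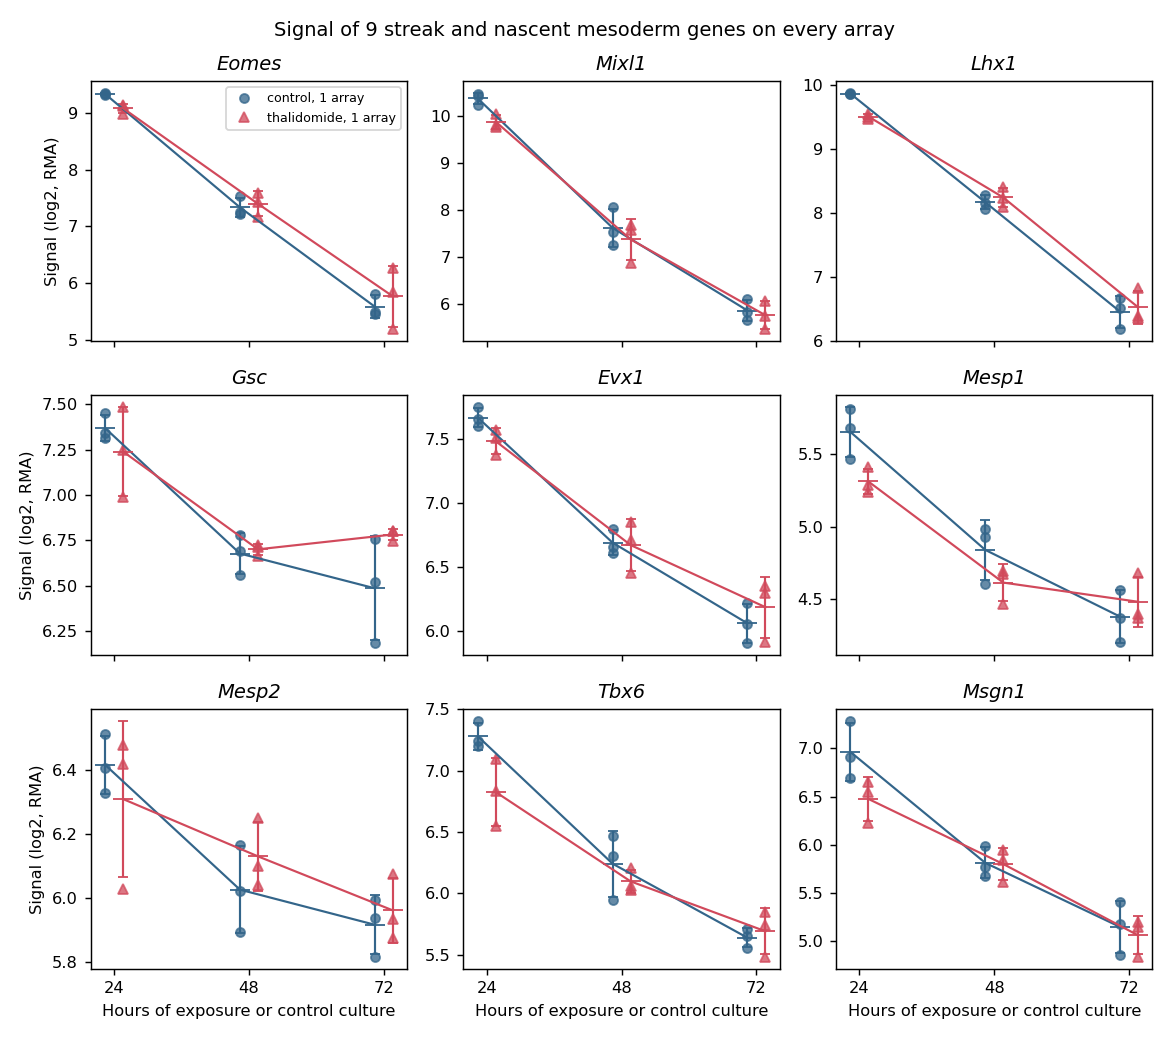
Signal on the log2 scale (vertical axis, a separate range for each gene) against hours (24, 48, 72) for the 9 genes, with a point per array, circles for control and triangles for thalidomide, and lines through group means with SD bars (n = 3). Both arms descend in every panel from 24 h to 48 h, and the 2 arms lie apart at 24 h for most genes and mix at 48 h and 72 h.

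Among the factors of the early streak, Mixl1 had the steepest course. Its control arrays read 10.47, 10.44 and 10.25 at 24 h, 7.26, 7.54 and 8.06 at 48 h, and 5.65, 6.10 and 5.82 at 72 h. No array of a later time reached any of an earlier time. The change from 24 h to 72 h was -4.53 ± 0.21 (SE; adjusted p = 5.55e-10 in limma), or 23-fold lower, and it ranked 1 of 22180 genes when changes were ordered from the most negative.

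Eomes, which is needed for epiblast cells to form endoderm and to leave the streak as mesoderm, followed the same path. Control arrays read 9.35, 9.34 and 9.31 at 24 h, 7.25, 7.22 and 7.53 at 48 h, and 5.45, 5.49 and 5.81 at 72 h. The 3 times were fully separated, and the total change was -3.76 ± 0.19 (SE; adjusted p = 7.72e-10), 13.5-fold lower and rank 5 of all genes.

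Lhx1, a LIM homeobox factor of anterior mesendoderm, was the tightest of the group at 24 h, with control arrays at 9.86, 9.87 and 9.85. It stood at 8.15, 8.06 and 8.28 at 48 h and at 6.50, 6.67 and 6.18 at 72 h, again without overlap. Its change over the control course was -3.41 ± 0.13 (SE; adjusted p = 2.9e-11), 10.6-fold lower and rank 9.

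Gsc, a homeobox factor of the organizer region of the streak, moved far less. Control arrays read 7.34, 7.31 and 7.45 at 24 h, 6.56, 6.69 and 6.78 at 48 h, and 6.52, 6.76 and 6.19 at 72 h. The 48 h and 72 h arrays overlapped. From 24 h to 48 h the change was -0.69 ± 0.12 (SE; adjusted p = 0.00117), and from 48 h to 72 h it was -0.19 (adjusted p = 0.455, 95% interval -0.46 to 0.07).

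Evx1, an even-skipped type homeobox gene of the posterior streak, had control arrays at 7.60, 7.76 and 7.66 at 24 h, 6.61, 6.66 and 6.80 at 48 h, and 5.90, 6.21 and 6.05 at 72 h. Its levels fell at both steps without overlap, by 1.62 in all on the log2 scale (adjusted p = 4.36e-08).

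The nascent mesoderm pair Mesp1 and Mesp2 are neighbouring bHLH genes on chromosome 7, and their signals are not compared with each other. Mesp1 arrays read 5.47, 5.81 and 5.68 at 24 h, 4.98, 4.60 and 4.93 at 48 h, and 4.37, 4.20 and 4.56 at 72 h. Its mean over all arrays lay at the 31.7th percentile of genes, the lowest of the members, and its change over the control course was -1.28 ± 0.12 (SE; adjusted p = 7.7e-07). Mesp2, best known for setting segment borders in forming somites, had the narrowest range of the members, 0.70 over all 18 arrays. Its control arrays read 6.33, 6.51 and 6.41, then 6.16, 5.89 and 6.02, then 5.94, 5.82 and 5.99, so the 24 h arrays stood above the others while 48 h and 72 h overlapped. The total change was -0.50 ± 0.11 (SE; adjusted p = 0.00228). Its fall from 24 h to 48 h, -0.39 (adjusted p = 0.024), did not pass without control replicate 2 or 3 of 24 h or control replicate 2 or 3 of 48 h (adjusted p = 0.0962, 0.0557, 0.109 and 0.0579).

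The presomitic factors lay between these extremes. Tbx6, a T-box factor that directs cells to paraxial mesoderm instead of a neural fate, read 7.41, 7.24 and 7.20 at 24 h, 6.31, 5.95 and 6.47 at 48 h, and 5.71, 5.65 and 5.56 at 72 h in control. Msgn1, a bHLH factor of presomitic mesoderm, read 7.29, 6.69 and 6.92, then 5.68, 5.77 and 5.99, then 4.86, 5.41 and 5.18. Neither gene showed overlap between times. Tbx6 fell by 1.64 and Msgn1 by 1.81 on the log2 scale over the course (adjusted p = 1.96e-07 and 4.17e-07).

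Split by interval, all 9 members fell from 24 h to 48 h in control (6.7% of all genes fell, 13.6% changed), and 7 fell from 48 h to 72 h (2.9% fell, 6.53% changed). Gsc and Mesp2 did not pass in the later interval. The 2 intervals share the 48 h arrays. At 48 h the group means had covered 49.8% of the total fall for Lhx1, 53.3% for Eomes, between 60.8% and 63.9% for Evx1, Mixl1, Tbx6, Msgn1 and Mesp1, and 78.1% and 78.3% for Mesp2 and Gsc. The later count depends on single arrays: it was 4 of 9 without control replicate 3 of 48 h, where Mesp1, Tbx6 and Msgn1 no longer passed (adjusted p = 0.138, 0.0879 and 0.115). Mesp1 also did not pass without control replicate 1 of 48 h or replicate 1 or 2 of 72 h (adjusted p = 0.131, 0.0855 and 0.142). Tbx6 did not pass without replicate 1 of 48 h or replicate 3 of 72 h (0.0533 and 0.0663), nor Msgn1 without replicate 2 of 48 h or replicate 1 or 3 of 72 h (0.0541, 0.107 and 0.064).

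Under thalidomide all 9 members fell between 24 h and 72 h in the exposed arm (10.6% of all genes fell, 25.1% changed), with a median of -1.30 against -0.026 over all genes. The totals of the weakest movers were -0.46 for Gsc (adjusted p = 0.0127) and -0.35 for Mesp2 (adjusted p = 0.0271). Gsc did not pass without exposed replicate 1 of 24 h (adjusted p = 0.0752), nor Mesp2 without exposed replicate 1 or 2 of 24 h or replicate 1 or 3 of 72 h (0.107, 0.123, 0.0999 and 0.07). From 24 h to 48 h 8 members fell (4.36% of genes fell, 10.1% changed), and the value of Mesp2 was -0.18 (adjusted p = 0.368). In this interval Gsc did not pass without exposed replicate 1 of 24 h (adjusted p = 0.0578), nor Msgn1 without exposed replicate 1 or 2 of 24 h or replicate 2 of 48 h (0.0702, 0.0509 and 0.064). From 48 h to 72 h 5 members fell (3.76% of genes fell, 10.2% changed): Eomes, Mixl1, Lhx1, Msgn1 and Evx1. The other values were -0.41 for Tbx6 (adjusted p = 0.0762), -0.17 for Mesp2, -0.13 for Mesp1 and 0.08 for Gsc. This count was 3 without exposed replicate 2 of 72 h, where Msgn1 and Evx1 no longer passed (adjusted p = 0.0501 and 0.0788). Evx1 also did not pass without exposed replicate 2 or 3 of 48 h (0.0826 and 0.0555), whereas Tbx6 passed without control replicate 2 of 48 h (0.0495). In this arm the re-analysis tag moves with the step from 24 h to 48 h.

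Exposed arrays of Mixl1 read 10.05, 9.82 and 9.78 at 24 h, 6.87, 7.58 and 7.68 at 48 h, and 6.06, 5.47 and 5.74 at 72 h. Its change of -4.13 ± 0.21 (SE; adjusted p = 2.35e-09) over the exposed course again ranked 1 of 22180 genes from the most negative. Eomes read 9.12, 9.14 and 8.99, then 7.17, 7.43 and 7.60, then 5.85, 6.26 and 5.19, the last being its widest group (SD 0.54). Lhx1 read 9.47, 9.54 and 9.50, then 8.09, 8.40 and 8.22, then 6.82, 6.36 and 6.39. For all 3 genes the exposed times were as cleanly separated as in control.

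**Figure D2:**
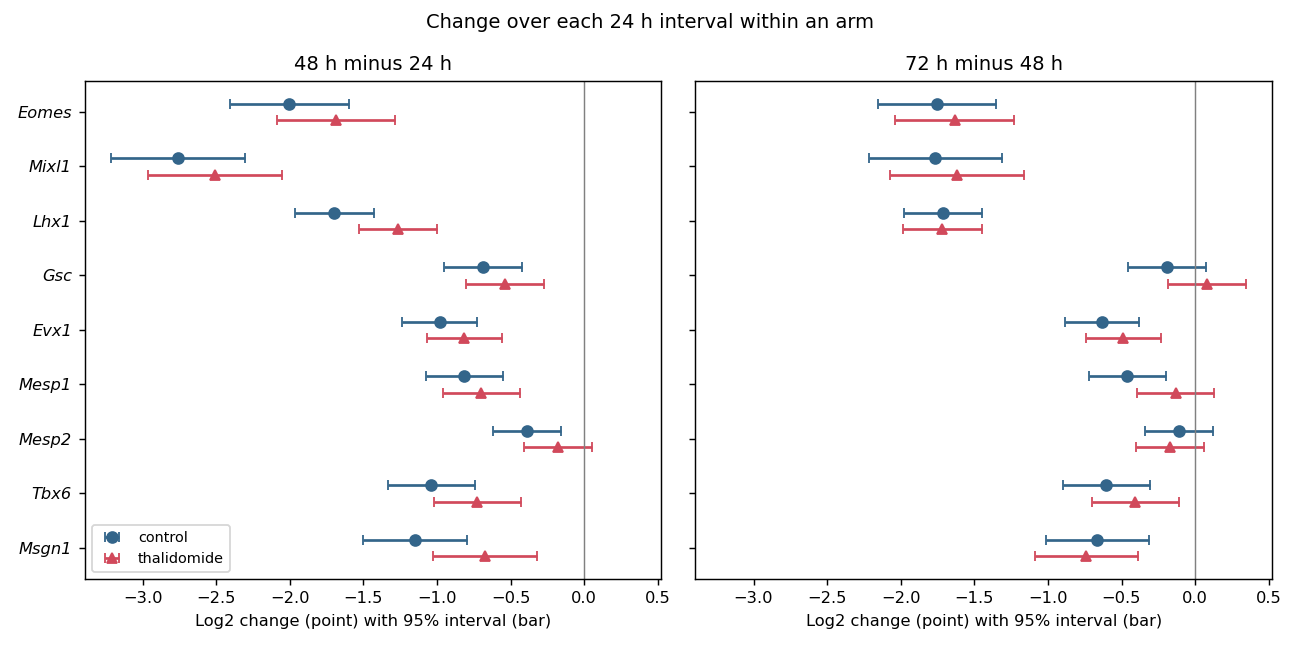
Log2 change with its 95% interval for each gene over the first (left) and second (right) 24 h interval, in control (circles) and thalidomide (triangles). Mixl1 has the most negative points on the left (-2.76 and -2.51), and in the right panel only Eomes, Mixl1 and Lhx1 lie below -1.

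The next question was whether thalidomide altered the members' levels at a given time. In limma 0 of 9 members passed at 24 h, 48 h or 72 h, where 6.86% (5.43% lower), 6.08% and 0.00902% of all genes were called. At an unadjusted p under 0.05 the counts were 5, 0 and 1, where 21.2%, 23.3% and 9.12% of all genes lay under it. A missed threshold does not show equal levels, and the 95% intervals bound what was measured.

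At 24 h all 9 values were below 0 in the exposed arm, with a median of -0.34 and a range from -0.50 to -0.11. The median over all genes was -0.0063, and 51.5% of genes were below 0. For 7 members every exposed array lay below every control array, a separation that 15.9% of genes showed in this direction. The exceptions were Gsc, with exposed arrays at 7.48, 6.99 and 7.24, and Mesp2, at 6.42, 6.48 and 6.03.

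Tbx6 came nearest to the threshold. Its exposed arrays of 24 h read 7.10, 6.83 and 6.55, all below the lowest control array of 7.20, and the change was -0.45 ± 0.14 (SE; adjusted p = 0.0623; 95% interval -0.75 to -0.16). It passed in 6 of 26 alternative fits, whose adjusted p ran from 0.024 to 0.211. Among these 6 were the fits without exposed replicate 1 of 24 h (-0.59, adjusted p = 0.0382) and without control replicate 2 of 48 h (adjusted p = 0.0407). Msgn1 read 6.65, 6.55 and 6.22 in exposed arrays, also without overlap, with a change of -0.49 ± 0.17 (SE; adjusted p = 0.0917). It passed in 2 of 26 alternative fits, among them the fit without control replicate 2 of 24 h (-0.62, adjusted p = 0.0476). When only the brighter part of the genes was tested, cut at the median signal, 3 of the 8 members kept passed: Tbx6, Msgn1 and Lhx1 (adjusted p = 0.024, 0.0397 and 0.0441).

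The brighter streak factors had separated groups as well but missed the threshold. Lhx1 had a change of -0.36 (adjusted p = 0.103), Mixl1 one of -0.50 (adjusted p = 0.189; 95% interval -0.95 to -0.04) and Eomes one of -0.25 (adjusted p = 0.492). Mesp1, with exposed arrays at 5.29, 5.41 and 5.24, had a change of -0.34 (adjusted p = 0.113). Evx1 stood at 7.57, 7.51 and 7.37, a change of -0.19 (adjusted p = 0.406).

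Other measures moved with exposure at 24 h. Brighter genes had lower values: the median change was 0.054 among the dimmest 5545 genes, which held 0 members, and -0.075 among the brightest 5545, which held 3. After cyclic loess between arrays all 9 members were still below 0, with a median of -0.28. Small nucleolar RNAs, used as a sign of RNA handling, rose in 17 of 73 and fell in 0 at 24 h. Over all genes 6.86% were called and 5.43% were lower. The array means of these RNAs ran from 8.58 to 8.62 in control and from 8.74 to 8.99 in exposed cells. Ribosomal protein genes fell in 7 of 67 and rose in 2, with array means from 8.93 to 8.95 in control and from 8.81 to 8.86 in exposed cells. Shifts were also present at 48 h: the median change was 0.056 among the dimmest 5545 genes and -0.058 among the brightest 5545. Small nucleolar RNAs rose in 5 of 73 and fell in 0 at 48 h, where 6.08% of all genes were called. Their array means ran from 8.54 to 8.58 in control and from 8.65 to 8.73 in exposed cells. Ribosomal protein genes rose in 4 of 67 and fell in 2 at 48 h. The part of these shifts in the members' values was not tested.

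At 48 h the arms overlapped for every member, whereas 29.2% of genes had arms that did not. The median of the members was -0.012 (all genes 0.0050), 4 values lay above 0 and 5 below, and the widest interval reached from -0.70 to 0.21, for Mixl1. The most negative value was that of Mixl1, -0.25 (adjusted p = 0.525), followed by Mesp1 at -0.23 (adjusted p = 0.289), whose exposed arrays read 4.67, 4.70 and 4.47. Eomes and Lhx1 had values of 0.06 and 0.07.

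At 72 h the arms overlapped for all 9 members again (14.8% of genes had no overlap), with a median of 0.07 (all genes 0.0034), 7 values above 0 and 2 below. Gsc had the highest value, 0.30 ± 0.12 (SE; adjusted p = 0.474). Its exposed arrays sat close together at 6.80, 6.75 and 6.80, whereas the controls ranged from 6.19 to 6.76, and these groups overlapped only through the highest control and the lowest exposed array. The intervals of all 9 members lay between -0.55 and 0.59. In the same arrays all 7 neural ectoderm markers had values above 0 (median 0.49) and 12 of 13 cardiac and vascular genes had values below 0 (median -0.47), with 0 called in either list by limma. At an unadjusted p under 0.05 the counts were 5 of 7 and 9 of 13, against 9.12% of all genes. Both lists were chosen with earlier results of these data known, so these counts are a description only. At 72 h the re-analysis tag and the drug cannot be told apart. Array means of the neural list were 5.89 to 6.40 in control and 6.56 to 7.14 in exposed cells, and those of the cardiac list 7.88 to 7.97 and 7.14 to 7.71.

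**Figure D3:**
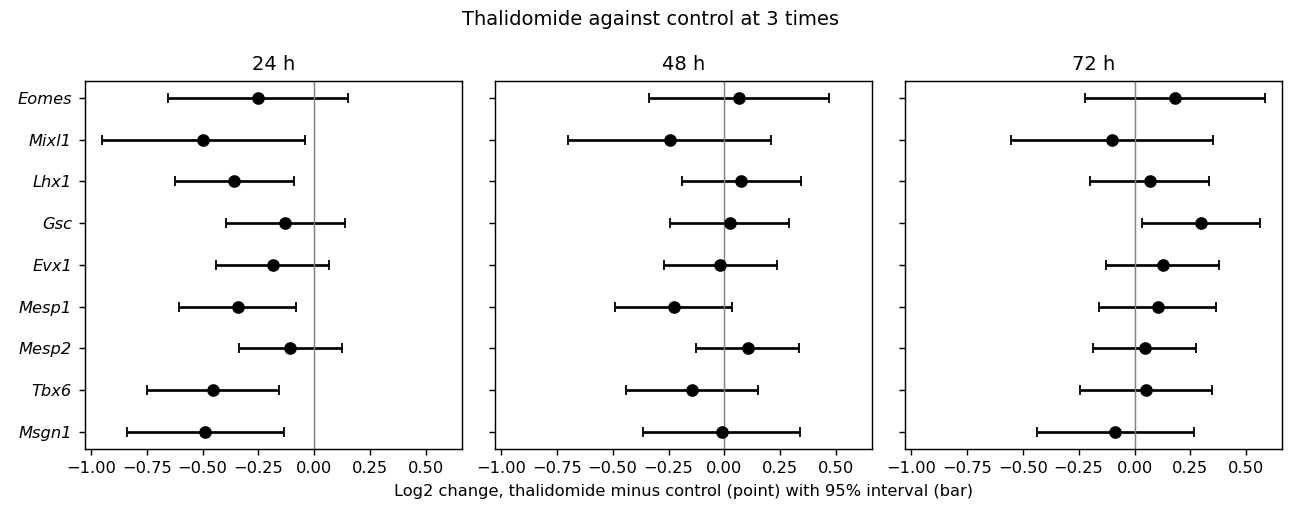
Log2 change, thalidomide minus control, with its 95% interval for the 9 genes at 24, 48 and 72 h. All 9 points lie below 0 at 24 h (-0.50 to -0.11), and at 48 h and 72 h they lie on both sides of 0.

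Whether the exposure effect itself changed between times was tested as a difference of differences. In limma 0 of 9 members passed between 24 h and 48 h, 48 h and 72 h, or 24 h and 72 h, where 0%, 0.0947% and 0.496% of all genes were called, and at an unadjusted p under 0.05 the counts were 1, 0 and 4 (7.67%, 14% and 14.3% of all genes). Between 24 h and 72 h all 9 values were above 0, from 0.15 to 0.51, with Tbx6 at 0.51 ± 0.20 (SE; adjusted p = 0.242) and Mesp1 at 0.45 ± 0.18 (SE; adjusted p = 0.246). A drug effect on the members that differs between times is thus not shown. Among exposed arrays only those of 24 h carry the re-analysis tag, so a change of effect from 24 h cannot be told apart from it.

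Genes that act with the members were read from lists of signals, antagonists and neighbouring cell types. Beside the counts below, 14.3% of all genes fell and 27.5% changed over the control course in limma. Of 14 signals that induce the streak, 10 fell and 4 rose over the control course, among the former Tdgf1, the Nodal co-receptor (-3.58), Wnt3 (-2.61) and Wnt8a (-1.93). Of 9 secreted antagonists 5 fell, including Lefty2 (-2.40), a Nodal inhibitor, Fst (-2.02), which binds activin, and Cer1 (-1.70), an inhibitor of Nodal and BMP. Of 13 other streak and posterior genes 10 fell and 0 rose, led by the Wnt target Sp5 (-1.89), Nkx1-2 (-1.65) and the Wnt effector Lef1 (-1.52). In the presomitic and somitic list 4 of 14 fell, with Dll3 (-1.98) and Rspo3 (-1.55) leading, and 4 rose, among them the somite gene Meox1 (1.80). Of 11 pluripotency and epiblast genes 8 fell and 1 rose, led by Nanog (-4.31) and the epiblast growth factor Fgf5 (-3.89), while of 13 cardiac and vascular genes 11 rose and 0 fell, led by Myocd (2.71), Mef2c (2.69) and Tbx20 (2.18), regulators of heart and smooth muscle. In the definitive endoderm and node list 4 of 10 fell and 2 rose.

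At 24 h of exposure limma called 3 of the 14 inducing signals, where 6.86% of all genes were called and 5.43% were lower. Tdgf1 fell by 0.75 (adjusted p = 0.0432), Wnt8a by 0.60 (adjusted p = 0.0188) and Fgf8, a growth factor of the streak, by 0.49 (adjusted p = 0.0456) on the log2 scale. They passed in 12, 22 and 10 of 26 alternative fits. The call of Tdgf1 was lost when any 1 of the 6 arrays of 24 h was left out (adjusted p from 0.0725 to 0.134), also without control replicate 1 of 48 h or any control array of 72 h (0.0528 to 0.0542). Wnt8a lost its call without control replicate 1 or 2 or exposed replicate 3 of 24 h (0.0667, 0.0547 and 0.0727), and Fgf8 lost it for 12 of the 18 arrays when each was left out in turn (adjusted p up to 0.216). Of the other streak and posterior genes Sp5 fell by 0.73 (adjusted p = 0.000944), in all 26 alternative fits, and Cdx4, a posterior caudal-type factor, rose by 0.47 (adjusted p = 0.00759), in 24 of 25. Cdx4 was dim, with means of 4.98 in exposed and 4.51 in control arrays of 24 h, below the median gene at 5.77. The filter at the median signal did not keep Cdx4, so it has no value there. The presomitic, endoderm, cardiac and antagonist lists had 0 called genes in limma at 24 h, with 1 of 14, 1 of 10, 1 of 13 and 3 of 9 genes at an unadjusted p under 0.05, against 21.2% of all genes. At 48 h, where limma called 6.08% of all genes, it called 0 of the 14 inducing signals and 0 of the 13 posterior genes. At an unadjusted p under 0.05 the counts were 3 and 0 (23.3% of all genes). In the endoderm and node list 3 of 10 genes fell: Noto (-0.50), Cxcr4 (-0.42) and Cldn6 (-0.41). Noto passed in 10 of 25 alternative fits, Cxcr4 in 25 of 26 and Cldn6 in 20 of 26. Leaving out any exposed array or control replicate 1 or 3 of 48 h ended the call of Noto. That call also ended without replicate 1 of either arm at 24 h, control replicate 3 of 72 h or any exposed array of 72 h. Leaving out replicate 2 or 3 of either arm at 48 h ended the call of Cldn6. In each of 3 other lists 1 gene fell: the Wnt antagonist Frzb among the antagonists (-0.38, adjusted p = 0.0296), the epiblast and anterior factor Otx2 in the pluripotency and epiblast list (-0.50, adjusted p = 0.0258) and the homeobox gene Rhox5 among visceral endoderm markers (-0.61, adjusted p = 0.0353). They passed in 19, 21 and 18 of 26 alternative fits. The call of Frzb ended without any control array or exposed replicate 1 or 2 of 48 h, that of Otx2 without control replicate 1 or 3 or any exposed array of 48 h, and that of Rhox5 without any control array or exposed replicate 2 or 3 of 48 h.

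Markers of other cell types in which some members are also used were read beside them. Of 7 trophoblast markers 1 rose and 2 fell over the control course (14.3% of all genes fell, 27.5% changed). Their array means stayed between 5.21 and 5.54 in all 6 groups. The median gene stood at 5.77. Group means lay below it throughout for Elf5, a trophoblast stem cell factor (4.44 to 4.61), the placental gene Tpbpa (3.88 to 4.14), Plac1 (4.80 to 5.31) and Ascl2 (5.05 to 5.70). They lay above it throughout for Gata3 (5.93 to 6.77), which rose by 0.84 over the control course, and the keratin gene Krt7 (6.05 to 6.59), and on both sides of it for Tfap2c (5.42 to 6.19). Of 8 visceral endoderm markers 4 rose and 3 fell, led by Afp (1.73), Ttr (1.41) and Cubn (-1.28), with array means from 7.60 to 7.83 at 24 h and 7.73 to 8.07 at 72 h in control. Their part in the levels of Gsc, Lhx1 and Eomes was not tested.

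The members' profiles over the 18 arrays resembled one another. Pearson's r between pairs, a description over arrays that share the same 3 times, ran from 0.655 (Mesp2 and Gsc) to 0.989 (Mixl1 and Evx1), with a median of 0.917 over 36 pairs. After group means were removed the median was 0.215, with a range from -0.456 to 0.815. Among all genes without predicted loci, the profile most like that of Lhx1 was Tiam2 (r = 0.996), followed by Zscan10 (0.993) and Fgf5 (0.987). Eomes was most like Tiam2 (0.984), Slc7a7 (0.982) and Lhx1 (0.981), and Mixl1 most like Fah (0.99), Evx1 (0.989) and Phc1 (0.985). Evx1 was nearest to Mixl1 (0.989), Efna3 (0.983) and Enc1 (0.981). Tbx6 was most like C1qbp (0.98), Pbx3 (0.976) and Pm20d1 (0.965), and Msgn1 like Pm20d1 (0.973), Fah (0.966) and Tbx6 (0.964). Mesp1 was most like Aatf (0.96), Pid1 (0.949) and C1qbp (0.949). Gsc had Ttc7 (0.94), Cabp7 (0.937) and Syn1 (0.935) as its nearest, and Mesp2 had Rhbg (0.906), Pou5f1 (0.887) and Wnt8a (0.878), the lowest values of likeness among the 9.

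**Figure D4:**
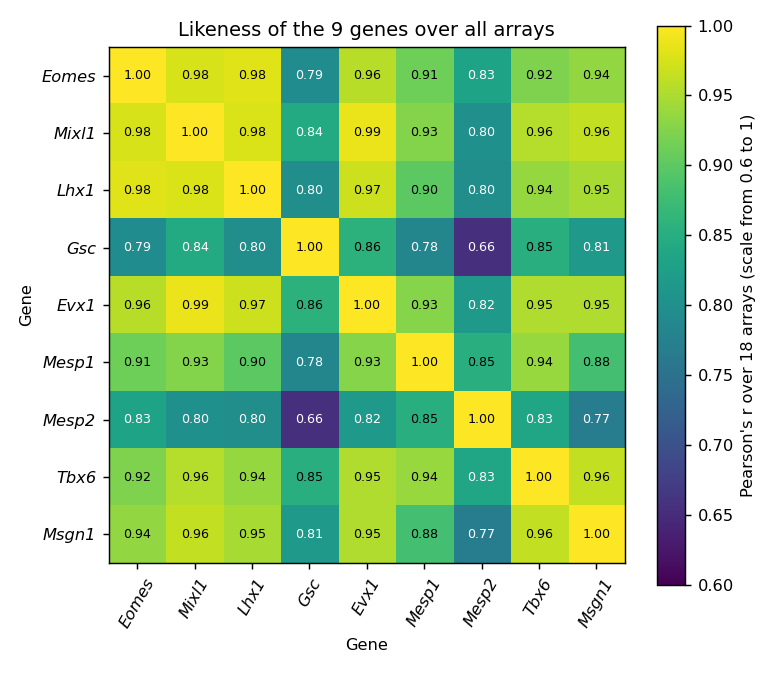
Pearson's r over 18 arrays for each pair of the 9 genes (rows and columns), with colour from 0.6 to 1 and the value printed in each cell. Values run from 0.655 to 0.989, and the lowest are in the rows of Gsc and Mesp2.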

How the data were processed

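The authors deposited 1 log2 signal for each probe set on each array. The submitters' processing notes name RMA and Affymetrix Expression Console 1.3, and no genome build is named. RMA makes array distributions nearly alike, so changes are relative to other probe sets, and a shift of most transcripts would not be seen. Of 41345 probe sets, 23521 had 1 gene symbol in the platform annotation, giving 22180 genes (the probe set with the highest mean represented each gene). limma 3.58.1 in R 4.3.3 was fitted with 1 mean per group over all 18 arrays (residual degrees of freedom 12, prior 4.35). P-values are two-sided, adjusted by Benjamini-Hochberg over all genes within a contrast, with a threshold of 0.05, and the fit was tested on simulated data. Intervals cover 95%. An exact rank test of 3 against 3 arrays cannot go below p = 0.1 and was not used. The number of arrays limits precision. Samples were grouped by their titles. Alternatives were other probe set rules, a filter on dim genes, cyclic loess, other variance models, array weights, fits of the compared groups alone, a replicate block and leaving out each array. The members and the 10 lists were chosen with earlier results of these data known. From each list up to 3 called genes with the largest change were named, and for each member the 3 genes with the highest Pearson r.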

Additional observations from a re-analysis of the deposited data

Results flagged for a closer look

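The exposure effect on Sp5, a Wnt-responsive factor of the streak, differed between 24 h and 72 h by 0.84 ± 0.15 (SE; limma adjusted p = 0.0228), from -0.73 at 24 h to 0.11 at 72 h. It is listed because a test of the difference itself passed. All controls carry the re-analysis tag, and exposed arrays carry it at 24 h but not at 72 h. The change of effect and the tag thus cannot be told apart. Exposed arrays averaged 7.13 against 7.86 in control at 24 h and 6.08 against 5.97 at 72 h. The difference passed in 21 of 26 alternative fits (0.75 to 0.92, adjusted p from 0.00261 to 0.0729), and the 5 others used only the groups compared (adjusted p = 0.0573) or left out control replicate 1 or 3 of 24 h, control replicate 3 of 72 h or exposed replicate 1 of 72 h.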

How the results depend on the processing

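The count of members called at 24 h of exposure, 0 of 9, was 3 of 8 with genes below the median signal left out, and 1 with trended robust variances, with array weights and with the replicate block (Tbx6 each time, adjusted p = 0.0304, 0.0377 and 0.0464). It was 0 to 1 with 1 array left out. The replicate number did not pair the arrays: of 9 same-numbered pairs of control and exposed arrays of a time, 1 had a correlation of deviations over 0.1 (-0.14 to 0.118). The call of Mesp1 from 48 h to 72 h in control ended with the block (adjusted p = 0.0503), cyclic loess (0.0506), every probe set tested (0.0731) and only the compared groups (0.0976), and that of Msgn1 with every probe set tested (0.0533). With only the compared groups, exposed Evx1 from 48 h to 72 h (0.0941) and exposed Mesp2 from 24 h to 72 h (0.0924) did not pass. Counts from 48 h to 72 h were 4 to 7 in control and 3 to 6 in exposed cells with 1 array left out; the causes were not tested. Signs turned only for exposure values that no fit called: at 48 h Evx1 was 0.030 after cyclic loess. With 1 array left out, Mesp2 at 24 h ran from -0.19 to 0.033. At 48 h the ranges were -0.11 to 0.090 for Evx1, -0.037 to 0.075 for Gsc, -0.083 to 0.080 for Msgn1, -0.43 to 0.0078 for Mixl1, -0.0058 to 0.15 for Lhx1 and -0.035 to 0.18 for Eomes. At 72 h they were -0.25 to 0.042 for Mixl1, -0.011 to 0.088 for Mesp2, -0.23 to 0.042 for Msgn1, -0.079 to 0.18 for Lhx1, -0.065 to 0.47 for Eomes and -0.026 to 0.16 for Tbx6. No called time course of a member changed sign under these alternatives. Mesp1 was not kept by the filter at the median signal and has no value there. The files give no background signal for dim genes.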
